A study of Drosophila melanogaster with 6 samples.

Results

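The genes described here are 9 genes of the Jun N-terminal kinase (JNK) stress pathway of *Drosophila melanogaster*: egr, msn, slpr, Tak1, hep, bsk, Jra, kay and puc. They were taken by gene symbol from the deposited table of 17807 genes, and all 9 were found there. Transcripts were measured in muscle-enriched lysates of the body wall of wandering third-instar larvae, the stage that leaves the food before pupariation. Control larvae had the genotype Dmef2-Gal4>UAS-mCherryRNAi and carried a hairpin against mCherry, a fluorescent protein that is foreign to flies. The other larvae had the genotype Dmef2-Gal4>UAS-madRNAi and carried a hairpin against Mad, the transcription factor that relays bone morphogenetic protein (BMP) signals. Both groups shared the Dmef2-Gal4 driver, which turns hairpins on in muscle, and whether other cells in a lysate carried the knockdown was not measured. Each group held 3 libraries, and each library pooled 6 to 10 larvae. The labels do not say whether the pools came from separate crosses, so p-values measure only the spread between these libraries.

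The JNK pathway is a relay of kinases that starts at the cell surface and ends in the nucleus. A tumour necrosis factor ligand or another stress signal activates upstream kinases, these activate the JNK kinase, and it activates JNK, which switches on the transcription factor AP-1 by phosphorylation. In flies the pathway is known for sheet closure in the embryo, wound healing, cell death and the response to stress, and in the larval neuromuscular system for the growth of motor nerve terminals. Because its steps are phosphorylations, transcript levels of its components do not measure its activity, whereas puc is transcribed in response to JNK and serves widely as a reporter of it.

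None of the 9 genes passed the test between Mad knockdown and control. limma with Benjamini-Hochberg adjustment over 10348 tested genes called 0 of the 9 at an adjusted p-value under 0.05, against 2.59% of all genes tested. At an unadjusted p-value under 0.05 the count was 1 of 9, against 19.0% of all genes tested. edgeR and DESeq2 on the recovered counts also called 0 of the 9, against 252 and 998 of all 10348 tested genes. Each had 1 of the 9 at an unadjusted p-value under 0.05, against 1989 and 2068 of all tested genes. The adjusted p-values in limma ran from 0.203 for egr to 0.893 for msn. All 9 genes passed the filter on low values, and the smallest recovered count of any of them in a library was 698.

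The intervals show which differences were compatible with the values of these libraries. The log2 differences of Mad knockdown from control ran from -0.33 to 0.17, with a median of -0.063, beside a median of 0.0054 over all tested genes. Their median size without sign was 0.103, against 0.149 over all tested genes and 0.0962 over the 4960 tested genes whose mean lay within the range of the 9. The 95% interval of the fold, not adjusted for the number of genes, ran from 0.655 to 0.967 for egr. For the other 8 genes every interval lay between 0.798 and 1.35. These intervals come from the same limma fit and are on the scale of log2(normalized count + 1).

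**Figure D1:**
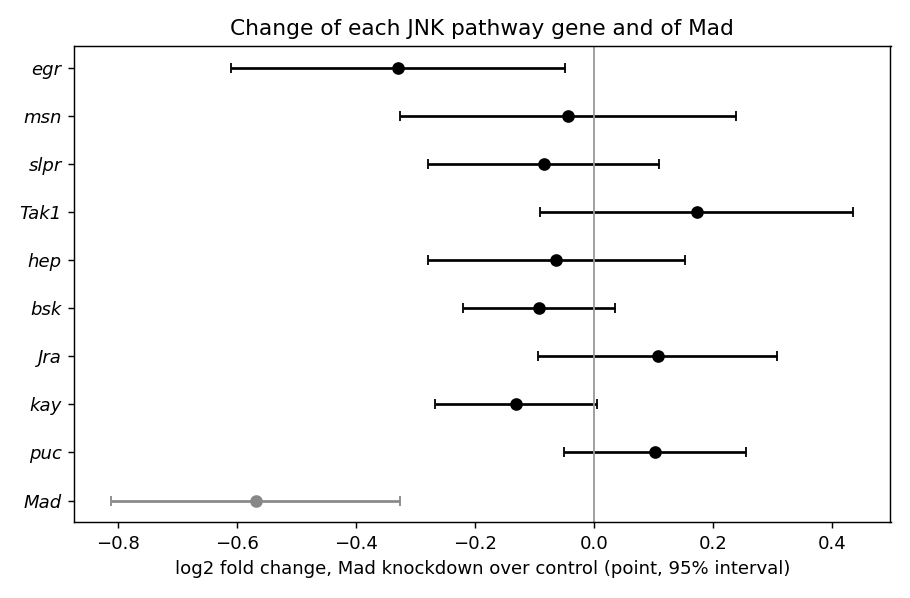
Log2 fold change of Mad knockdown over control knockdown (x axis) for the 9 JNK pathway genes and, for comparison, for Mad (y axis), with points for the limma estimate from 3 libraries a group and bars for its 95% interval. The interval of egr lies just below 0, from -0.61 to -0.048, those of the other 8 genes include 0, and Mad lies at -0.57.

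Libraries and targeted gene were examined as a check of the labels. Recovered counts summed to between 96639921 and 127220949 per library. Mad held 7533, 7658 and 7010 normalized counts in the control libraries and 4348, 5643 and 5053 in the knockdown libraries. Its mean was 67.8% of the control mean, limma gave an adjusted p-value of 0.0440, and the exact two-sided permutation test gave p = 0.1, the smallest that 3 libraries against 3 allow. The summed level of 9 muscle markers, Mhc and Mef2 among them, ran from 2382041 to 3369525 normalized counts in controls and from 1138102 to 1713123 after Mad knockdown, without overlap. Of these 9 markers 8 had a lower mean after knockdown and 1, Tm2, was called, while Mef2 averaged 48490 and 53188 normalized counts. The summed level of 6 haemocyte markers was also lower without overlap, at 93451 to 127498 and 81960 to 89106, as was that of 4 tracheal markers, at 34934 to 66749 and 13531 to 34639, with no gene of either list called. In both of these lists some members went the other way: NimC1, He, trh and btl had higher means after knockdown. The sums of the 2 male dosage compensation RNAs were 5730 to 11323 in controls and 11730 to 29195 after knockdown. These sums did not overlap, and neither RNA was called. The sums for nervous system, fat body, epidermis and cuticle and imaginal disc markers overlapped between the groups. The disc sum was mostly ct, and the other 4 disc markers, nub, rn, Dll and dac, had higher means after knockdown, such as 115.3 against 26.7 normalized counts for nub, with a list median log2 difference of 1.58 and no call. No marker on the 8 lists was at 0 in all 6 libraries. What part such shifts had in the values below was not tested, and in these lysates fewer cells of a type and less RNA per cell cannot be told apart.

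The ligand came first. The gene egr (FBgn0033483, chromosome 2R, 10078366 to 10084210, plus strand) encodes Eiger, the tumour necrosis factor of the fly. It was at 1049, 1075 and 916.1 normalized counts in control replicates 1 to 3 and at 896.8, 826.1 and 702.8 in knockdown replicates 1 to 3. Every knockdown library was below every control library, and the gap between control replicate 3 and knockdown replicate 1 was small. The mean was 1014 ± 85.5 (SD, n = 3) in controls and 808.6 ± 98.1 (SD, n = 3) after knockdown, which is 79.8% of control. The log2 fold change was -0.33 (SE 0.118; limma, adjusted p = 0.203). The summed muscle, haemocyte and tracheal markers given above were all lower without overlap, and their part in the difference of egr was not tested. Leaving out 1 library at a time gave log2 fold changes from -0.41 to -0.23, and adjusted p-values over all 18 alternative fits ran from 0.134 to 0.410.

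The groups overlapped in msn, slpr, Tak1 and hep, the kinases among the 9 that stand between the receptors and JNK. The gene msn (FBgn0010909, chromosome 3L, 2554847 to 2586540, minus strand) encodes Misshapen, a Ste20-family kinase at the top of the relay. Its normalized counts were 33761, 29987 and 26471 in control replicates 1 to 3 and 28427, 32727 and 26312 in knockdown replicates 1 to 3. The libraries of each group covered nearly the same range, and the log2 fold change was -0.04 (SE 0.118). Its sign changed in 2 of the 6 fits that left out 1 library, to 0.043 without control replicate 1 and 0.028 without Mad knockdown replicate 3.

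The mixed-lineage kinase gene slpr and the TGF-beta activated kinase gene Tak1 encode alternative activators of the JNK kinase. slpr (FBgn0030018, chromosome X, 8170229 to 8177185, minus strand) was at 7104, 6557 and 6481 normalized counts in control replicates 1 to 3 and at 6235, 6959 and 5836 in the knockdown replicates. The groups overlapped through knockdown replicate 2, and the log2 fold change was -0.08 (SE 0.0812). At its end slpr shares 38 exon bases with CG2278, which is 0.677% of its exon length. Tak1 (FBgn0026323, chromosome X, 20515908 to 20524928, minus strand) was at 10443, 11651 and 9000 in controls and at 10956, 12780 and 11201 after knockdown. Control replicate 3 was the lowest library and knockdown replicate 2 the highest, with overlap between the groups. Its log2 fold change of 0.17 (SE 0.110) was the most positive of the 9 (limma, adjusted p = 0.468). Without Mad knockdown replicate 2, control replicate 3 or another single library, it ran from 0.075 to 0.26.

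The gene hep (FBgn0010303, chromosome X, 13079205 to 13090434, minus strand) encodes Hemipterous, a kinase that phosphorylates JNK. It was at 7535, 7091 and 6867 normalized counts in control replicates 1 to 3 and at 6233, 7728 and 6678 in the knockdown replicates. The knockdown group held both the highest and the lowest library of the 6. The log2 fold change was -0.06 (SE 0.0905), and it was 0.0050 without Mad knockdown replicate 1.

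The gene bsk (FBgn0000229, chromosome 2L, 10247502 to 10250501, minus strand) encodes Basket, the JNK of the fly. Its normalized counts were 5404, 5425 and 5336 in control replicates 1 to 3 and 5266, 4976 and 4925 in knockdown replicates 1 to 3. All knockdown libraries lay below all control libraries, by a gap smaller than the SD of the knockdown group. It was the steadiest of the 9 in controls, with a coefficient of variation of 0.866%, and the mean was 5389 ± 46.7 (SD, n = 3) against 5055 ± 184 (SD, n = 3), or 93.8% of control. The log2 fold change was -0.09 (SE 0.0536), with a 95% interval from -0.22 to 0.036. At quantile or 75th percentile scaling its groups overlapped.

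The AP-1 subunits had differences of opposite sign, and neither was called. The gene kay (FBgn0001297, chromosome 3R, 29765995 to 29794113, plus strand) encodes Fos. It was at 24300.0, 23309 and 22488 normalized counts in control replicates 1 to 3 and at 21477, 21007 and 21468 in the knockdown replicates. Every knockdown library was below every control library, also at the 3 other scalings tried. The mean was 23366 ± 907 (SD, n = 3) in controls and 21317 ± 269 (SD, n = 3) after knockdown, which is 91.2% of control. The log2 fold change was -0.13 (SE 0.0570), and limma gave an adjusted p-value of 0.280, with an interval from -0.27 to 0.0045.

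The gene Jra (FBgn0001291, chromosome 2R, 10096480 to 10098556, plus strand) encodes Jun, the partner of Fos and a substrate of JNK. It lies 12270 bases beyond the end of egr. It was at 7102, 7661 and 7111 normalized counts in control replicates 1 to 3 and at 7281, 8776 and 7564 in the knockdown replicates. The groups overlapped, and knockdown replicate 2 stood above the other libraries. The log2 fold change was 0.11 (SE 0.0842), and it was 0.026 without Mad knockdown replicate 2. At its end Jra shares 39 exon bases, 2.38% of its exon length, with RpLP0-like on the opposite strand, and no strand setting is given for the counting. The ratio of kay to Jra within a library, both per exon length, was 0.721, 0.641 and 0.667 in controls and 0.622, 0.505 and 0.598 after knockdown. This ratio does not depend on library scaling, its groups did not overlap, and the exact two-sided permutation test gave p = 0.1, the smallest that 3 against 3 allow.

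The feedback phosphatase came last. The gene puc (FBgn0243512, chromosome 3R, 8105332 to 8122294, plus strand) encodes Puckered, which removes the activating phosphates from JNK. It was at 9342, 9774 and 8619 normalized counts in control replicates 1 to 3 and at 9804, 10123 and 9823 in knockdown replicates 1 to 3. Every knockdown library was above every control library, but control replicate 2 came within a small distance of knockdown replicate 1, and the groups overlapped after quantile normalization. The mean was 9245 ± 584 (SD, n = 3) in controls and 9916 ± 179 (SD, n = 3) after knockdown, or 107.3% of control. The log2 fold change was 0.10 (SE 0.0639), with a 95% interval from -0.050 to 0.26 (limma, adjusted p = 0.457). A rise in the reporter transcript in the whole lysate above 1.19-fold, or a fall below 0.966-fold, lay outside this interval. The part of the lower muscle markers given above in the level of puc was not tested. The ratio of puc to bsk, phosphatase to its substrate kinase and both per exon length, was 1.10, 1.15 and 1.03 in controls and 1.19, 1.30 and 1.27 after knockdown. Its groups did not overlap, and the exact two-sided permutation test gave p = 0.1. This outcome was fixed by the values above and adds no support. Every knockdown library was above every control library for puc and below every control library for bsk. The ratio of puc to bsk and that of kay to Jra were among 4 computed, chosen after the values of the genes were known. The groups of the ratios of hep to bsk and of slpr to Tak1 overlapped, and the same exact permutation test gave p = 0.8 and p = 0.2.

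**Figure D2:**
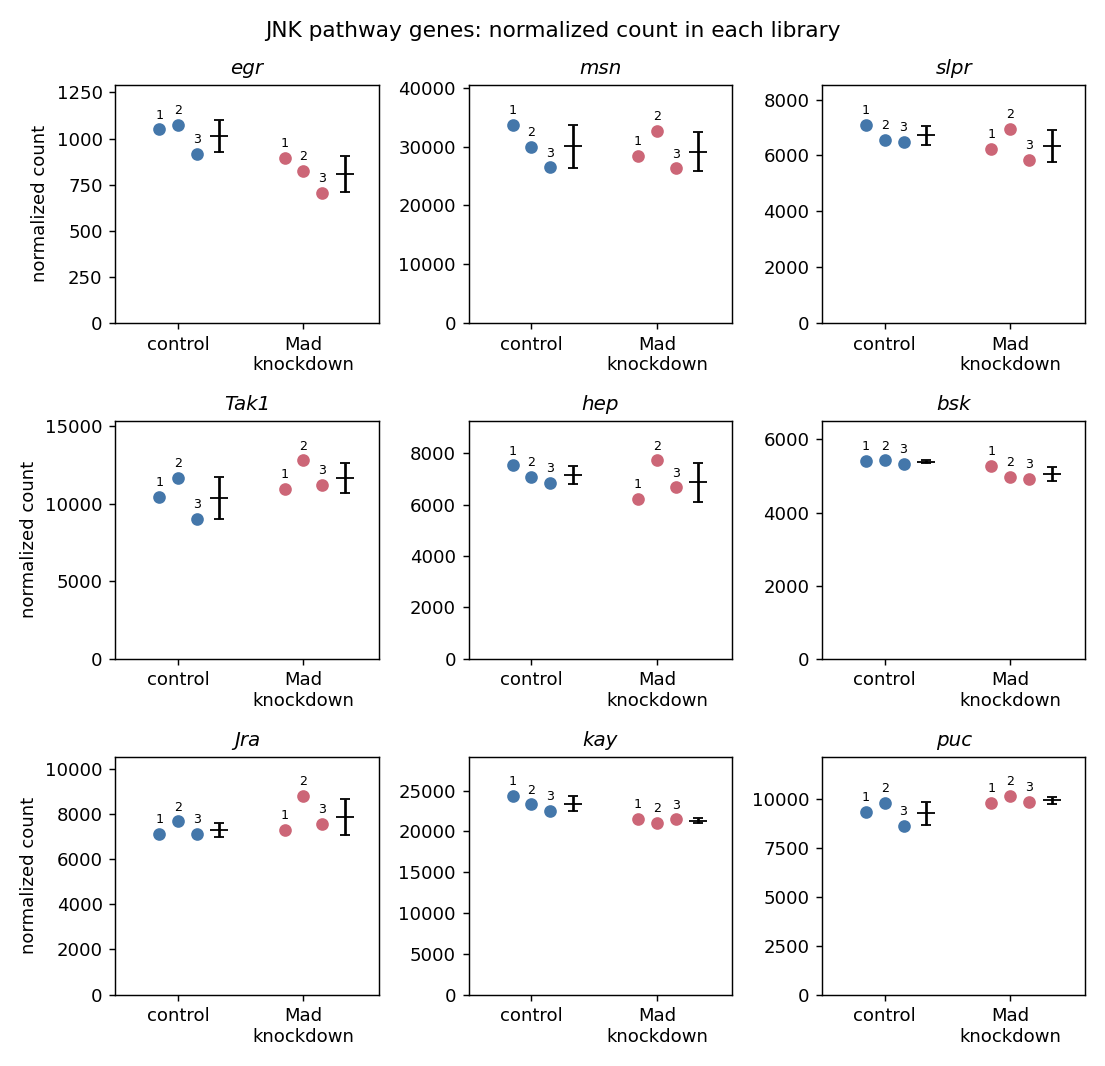
Normalized count (y axis, from 0) of each of the 9 JNK pathway genes in the 3 control and 3 Mad knockdown libraries (x axis), with numbers for the replicates and black bars for the mean ± SD of a group. The groups part by narrow gaps in egr, bsk and kay, where knockdown is lower, and in puc, where it is higher, and overlap in the other 5 genes.

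Groups that did not overlap were counted over the 9 genes and over all genes. They did not overlap in 4 of the 9 genes, egr, bsk, kay and puc, against 24.6% of all tested genes. In 3 of the 9 the knockdown libraries were lower, against 13.0% of all tested genes, and in 1 they were higher, against 11.6%. This count rests on narrow gaps: it was 4 with TMM scaling, 3 at the 75th percentile and 1 after quantile normalization, where only kay remained. These scalings were chosen for this count after the values were seen.

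Within a group, single libraries held the extremes of many of the 9 genes. Control replicate 3 held the lowest control value of 8 of the 9 genes, all but Jra. Mad knockdown replicate 2 held the highest knockdown value of 6 genes, msn, slpr, Tak1, hep, Jra and puc. That library had the lowest summed level of the 6 libraries for muscle markers, 1138102 normalized counts, and also for the haemocyte, nervous system, fat body, tracheal and epidermis and cuticle markers, that is for 6 of the 8 marker lists. The part of this in the 6 genes was not tested. How often these 2 libraries held such extremes over all tested genes was not counted. The counts above therefore cannot be read as a trait of the 9 genes. The median SD within a group was 0.110 on the log2 scale over the 9 genes and 0.157 over all tested genes.

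Transcript levels of the 9 genes were compared per kilobase of annotated exon. In controls Jra led with 4440 ± 195 (SD, n = 3) normalized counts per kb, and msn followed with 4401 ± 534 (SD, n = 3), with overlapping ranges. A middle set held kay at 3000 ± 117 (SD, n = 3), puc at 2916 ± 184 (SD, n = 3), bsk at 2670 ± 23.1 (SD, n = 3) and Tak1 at 2630 ± 337 (SD, n = 3), and the neighbours kay and puc, and bsk and Tak1, overlapped. slpr at 1196 ± 60.6 and hep at 1153 ± 54.7 (SD, n = 3) overlapped with each other and lay below every library of the middle set. The ligand gene egr was lowest, at 468.0 ± 39.5 (SD, n = 3) normalized counts per kb. After Mad knockdown Jra and msn again led, and slpr, hep and egr again closed the order. Within the middle set the order became puc at 3127 ± 56.5, Tak1 at 2955 ± 251, kay at 2737 ± 34.6 and bsk at 2505 ± 91.1 (SD, n = 3). There puc and Tak1 overlapped, and kay lay apart from both its neighbours. The exon length used joins the exons of all annotated transcripts, from 2 for egr to 8 for msn, so the level per kb is understated where long exons are used by few transcripts.

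**Figure D3:**
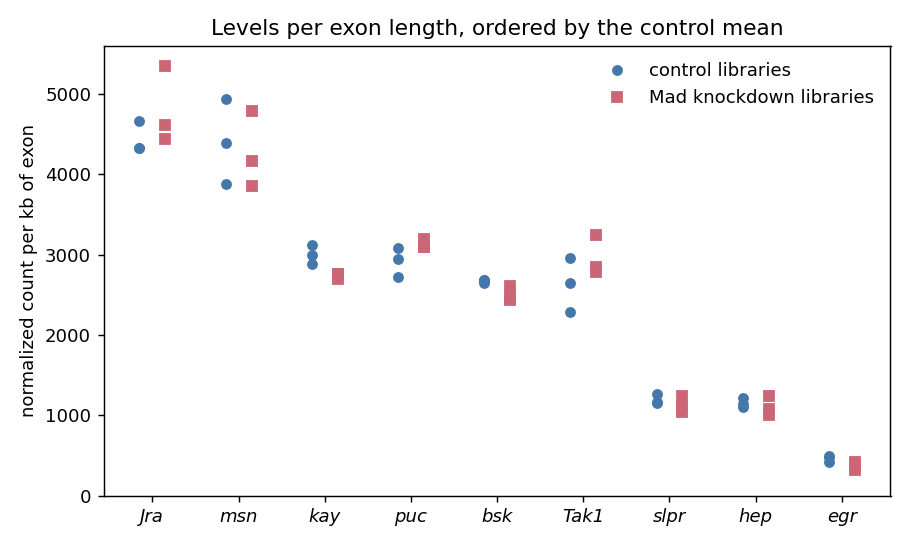
Normalized counts per kilobase of exon (y axis, from 0) of the 9 genes in order of their control mean (x axis), with circles for control and squares for Mad knockdown libraries. Jra and msn stand highest, kay, puc, bsk and Tak1 share a middle range, slpr and hep lie below these, and egr is lowest in both groups.

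Genes whose profile over the 6 libraries was most like that of puc were sought by the root-mean-square distance between log2 profiles, each centred on its own mean. The nearest of 8775 genes with a mean of at least 50 were PCID2 at a distance of 0.0184, trr at 0.0214 and Rpn12 at 0.0217. Close profiles were common, since 1982 genes lay within 0.1 of puc. Among the 9 genes the one nearest to puc was Jra, at 0.0758, and the nearest pair was kay and bsk, at 0.0438.

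The rest of the pathway was followed with 35 further genes, of which 33 passed the filter. limma called 0 of the 33 at an adjusted p-value under 0.05, and 7 (21.2%) had an unadjusted p-value under 0.05, against 19.0% of all tested genes. Groups did not overlap in 6 (18.2%), against 24.6% of all tested genes. The median log2 difference was -0.026, with 13 differences above 0 and 20 below. Over all tested genes 5289 lay above 0 and 5059 below.

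Receptors and adaptors comprised 7 genes, 0 called, with 3 at an unadjusted p-value under 0.05 in limma and in edgeR and DESeq2, neither of which called any. The share of all tested genes at that p-value, 19.0% in limma, is the background for this count and for those of the lists that follow. For calls in DESeq2 the background is 998 of all 10348 tested genes. In limma it is 269 after quantile normalization, 257 at 75th percentile scaling and 308 with robust fitting, each of 10348. Without Mad knockdown replicate 3 it is 193 of 10185. The 2 receptors of Eiger, chosen here after their values were seen, had opposite signs. grnd, which encodes Grindelwald, was at 5098, 5140 and 5012 normalized counts in control replicates 1 to 3 and at 6312, 5792 and 5320 in the knockdown replicates. wgn, which encodes Wengen, was at 2914, 3285 and 2812 in controls and at 2502, 2542 and 2605 after knockdown. Neither gene's groups overlapped, and the log2 fold changes were 0.19 (SE 0.0736) for grnd and -0.23 (SE 0.0746) for wgn, for which limma gave adjusted p-values of 0.234 and 0.163. Exons of other genes cover 13.1% of the exons of grnd. The extremes of the list were Tab2, whose product binds Tak1, at 0.28 and the adaptor gene Traf4 at -0.31, with 26.8% of its exons covered by other genes, and both had overlapping groups.

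Upstream kinases and GTPases comprised 9 genes, of which limma called 0 and 2 had an unadjusted p-value under 0.05. The highest was hppy, which encodes the Ste20-family kinase Happyhour, at 5334, 5204 and 4997 normalized counts in control replicates 1 to 3 and at 6809, 7958 and 6215 in the knockdown replicates. Every knockdown library was above every control library. Its log2 fold change was 0.43 (SE 0.0961; limma, adjusted p = 0.0746). The other was wnd, which encodes the dual leucine zipper kinase Wallenda known from injured axons, named here after its values were seen. It was at 6187, 6082 and 6018 in controls and at 9188, 7112 and 7649 after knockdown, without overlap. Its log2 fold change was 0.38 (SE 0.0979; limma, adjusted p = 0.0988). DESeq2 called both hppy and wnd, at adjusted p-values of 0.00358 and 0.0135, limma after quantile normalization called hppy at 0.0474, and edgeR called neither. The other 7 genes, with Mkk4, Ask1 and the Src kinase genes among them, had log2 differences from -0.16 for Rac2 to 0.12 for Src64B, all with overlapping groups.

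Scaffolds and negative regulators comprised 6 genes, of which 0 were called and 0 had an unadjusted p-value under 0.05 in limma, edgeR or DESeq2. Log2 differences ran from -0.24 for hiw, which encodes the ubiquitin ligase that limits Wallenda, to 0.12 for the scaffold gene syd, and the groups overlapped in all 6.

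Target genes known from other fly tissues comprised 13 genes, of which upd1 and upd2 did not pass the filter. limma called 0 of the 11 tested and 2, Atf3 and Ets21C, had an unadjusted p-value under 0.05. Their median log2 difference was -0.22. In limma 9 of the 11 log2 differences were below 0, against 5059 of all 10348 tested genes. In edgeR and in DESeq2 8 of the 11 were below 0, against 4847 and 5044 of all 10348 tested genes. Several signs in limma, those of Mmp1, hid and dpp among them, changed when single libraries were left out. Ets21C, an ETS factor gene with 28.3% of its exons covered by other genes, had a log2 fold change of -0.45 (SE 0.170) and overlapping groups. Atf3, which encodes a stress-induced partner of Jun, was at 4757, 4201 and 4580 normalized counts in control replicates 1 to 3 and at 2798, 2327 and 3379 in the knockdown replicates. The lowest control library was above the highest knockdown library. Its log2 fold change was -0.69 (SE 0.137; limma, adjusted p = 0.0561). It was called at 0.0479 with robust fitting, at 0.0354 without Mad knockdown replicate 3 and at 2.7e-04 in DESeq2, but not in edgeR. Atf3 was named after its values were seen.

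The groups overlapped in scaf, Mmp1 and rpr, and the differences of scaf and rpr moved both ways when single libraries were left out. scaf, which encodes a protease-like protein that JNK induces at the closing embryonic epidermis, was at 16547 normalized counts in control replicate 1 and at 6050 and 4394 in replicates 2 and 3, against 3033, 4104 and 5495 after knockdown. Its log2 fold change was -0.89 (SE 0.488). It ran from -1.29 without control replicate 3 to -0.33 without control replicate 1. The matrix metalloproteinase gene Mmp1 was at 40351, 28794 and 32972 in controls and at 21482, 40392 and 30348 after knockdown, so that each group held 1 library above the rest. The cell death gene rpr was at 386.8, 155.0 and 206.0 in controls and at 105.6, 261.2 and 175.2 after knockdown. Its log2 fold change was -0.45 (SE 0.433). It ran from -0.76 without Mad knockdown replicate 2 to -0.079 without control replicate 1, and was -0.11 without Mad knockdown replicate 1. Control replicate 1, highest of the 6 for scaf and rpr, also had the highest summed levels of muscle markers, at 3369525 normalized counts, of tracheal markers, at 66749, mostly verm and serp, and of imaginal disc markers, at 6563, mostly ct. The part of this was not tested. These 3 genes were named after their values were seen. The extremes of the list were upd3, a cytokine gene with 1.87 to 33.0 normalized counts per library and a log2 fold change of -1.68 (SE 0.939), and the cell death gene hid at 0.046 (SE 0.2). The BMP ligand gene dpp, which JNK induces in the closing embryonic epidermis, was at 1846, 1745 and 1536 in controls and at 1689, 1757 and 1699 after knockdown, a log2 difference of 0.0089 (SE 0.0839). It was named, like Ets21C, after its values were seen.

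**Figure D4:**
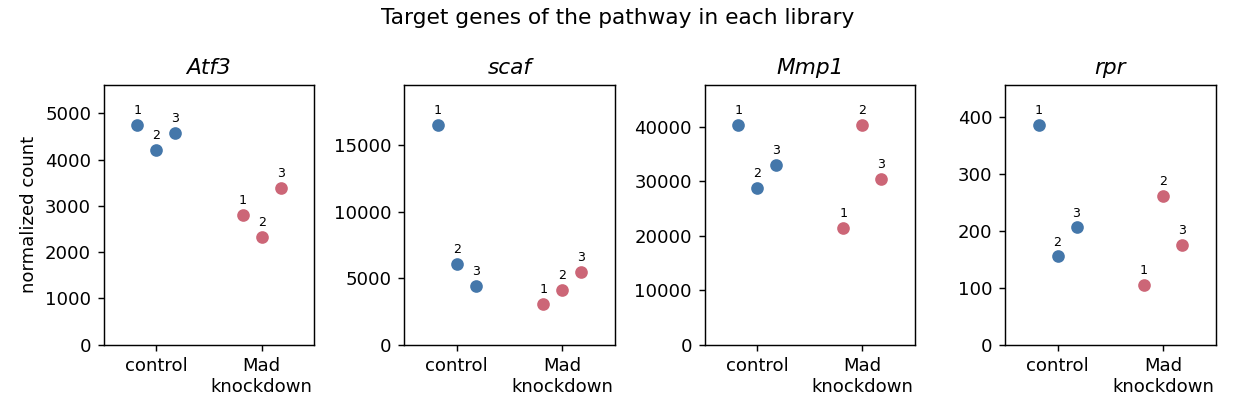
Normalized count (y axis, from 0) of 4 target genes of the pathway in the 3 control and 3 Mad knockdown libraries (x axis), with numbers for the replicates. Atf3 is lower in every knockdown library, whereas the groups overlap in scaf, Mmp1 and rpr, with control replicate 1 highest for scaf and rpr.

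The p38 branch, a related stress relay of mitogen-activated protein kinases, was read from 6 genes, of which limma called 0 and 1 had an unadjusted p-value under 0.05. That gene was Mekk1, the upstream kinase of the branch, at 11448, 10942 and 10208 normalized counts in control replicates 1 to 3 and at 14496, 14184 and 12864 in the knockdown replicates. Its groups did not overlap, and its log2 fold change was 0.35 (SE 0.0733; limma, adjusted p = 0.0631). It was called after quantile normalization, at 75th percentile scaling and in DESeq2, at 0.0484, 0.0492 and 0.00271, and not in edgeR. The lowest of the list was the p38 gene p38b, at -0.11 (SE 0.0689), with 20.9% of its exons covered by other genes. lic, the p38 kinase kinase gene whose start lies 711 bases from that of hep on the opposite strand, had a log2 difference of 0.070 (SE 0.0655) and was named after its values were seen.

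**Figure D5:**
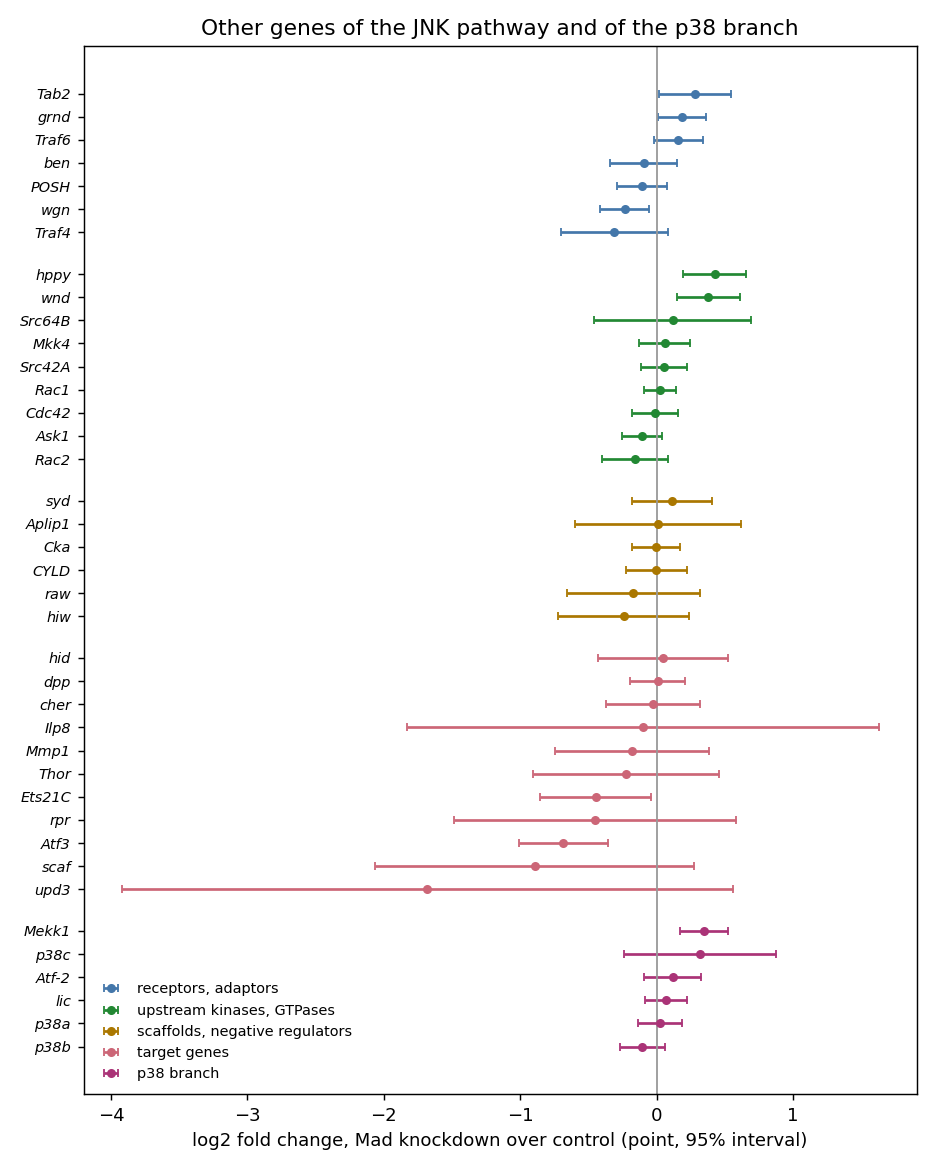
Log2 fold change of Mad knockdown over control knockdown (x axis) for 33 other JNK pathway genes and 6 p38 branch genes (y axis), coloured by role, with points for the limma estimate and bars for its 95% interval. Most genes lie near 0. Unadjusted intervals of hppy, wnd, Mekk1, grnd and Tab2 lie above 0, and those of Atf3, wgn and Ets21C lie below it. The intervals of scaf, upd3, rpr and Ilp8 are wide.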

How the data were processed

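Poly(A) RNA was sequenced in 3 control and 3 Mad knockdown libraries. The signal the authors deposited was a table of normalized gene counts. The labels name dm6 as genome build; aligner, counter and strand setting are not given in the sources used here. In each column every value was a whole multiple of 1 step (tolerance 0.001), which equalled the inverse of a median-of-ratios size factor (0.820 to 1.10), so counts were recovered for all 6 libraries. Genes that reached 10 normalized counts in 3 or more libraries were tested on log2(value + 1) with limma 3.58.1 (R 4.3.3; lmFit, eBayes with a trend, two-sided, Benjamini-Hochberg over all tested genes), a fit checked on simulated data. edgeR 4.0.16, DESeq2 1.42.0, other scalings, filters, pseudocounts and left-out libraries were alternatives. Single values were compared with exact two-sided permutation tests. Coordinates and exon lengths came from Ensembl 115, BDGP 6.54, which has dm6 coordinates and matched all 9 genes.

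Named genes were the 9 genes, Mad, called genes and the extremes of each list, and the 3 genes nearest to puc. Other list genes in the text (grnd, wgn, wnd, Mkk4, Ask1, Src64B, Atf3, Ets21C, scaf, Mmp1, rpr, dpp, lic) and the marker genes named were chosen after their values were seen. The genes and lists were chosen with earlier results of these data known, and no p-value was adjusted over a list alone.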

Additional observations from a re-analysis of the deposited data

How the results depend on the processing

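None of the 9 genes was called in any of the 18 alternative fits. The sign of 7 of them held in all 18. The exceptions, neither of them called, were msn, from -0.13 to 0.043, and hep, from -0.15 to 0.0050, when single libraries were left out. The number of the 9 genes without overlap was 1 after quantile normalization. The number of genes called over all genes was 138 without a trend, 998 in DESeq2 and from 43 to 193 in fits that left out 1 library, against 268. It was 269 after quantile normalization, 257 at 75th percentile scaling and 308 with robust fitting. Same-numbered libraries did not deviate together (the correlations were -0.141, -0.066 and 0.0373), and they were not treated as pairs; with the replicate block 117 genes were called and none of the 9. Among upstream kinases and GTPases 1 gene was called after quantile normalization and 2 in DESeq2. Among target genes 1 was called with robust fitting and in DESeq2, and from 0 to 1 in fits that left out 1 library. In the p38 branch 1 was called after quantile normalization, at 75th percentile scaling and in DESeq2. Receptors, adaptors, scaffolds and negative regulators had 0 calls in all 18. Mad kept its sign in all 18 and its call in 10. Why calls came and went was not tested; leaving out a library also lowers the number of libraries. With 3 libraries a group, the values do not tell apart the differences that lie inside the interval of a gene.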
